A study of Mus musculus with 9 samples.

Results

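The genes described here carry the insulin signal from the cell surface into the cell, or end it. They were chosen by name from the array's gene list, with earlier results of these data known, by a rule that holds no measured value. They number 10 of the 330 genes on the array: the receptor gene Insr, the docking protein genes Irs1 and Irs2, the kinase genes Pik3r1, Pik3cb and Pdpk1, the phosphatase genes Ptpn1 and Ptprf, the receptor inhibitor gene Enpp1 and the insulin-degrading enzyme gene Ide. Each had 1 spot per array. Of the 10, 8 were bright enough to be tested, while Ptprf and Enpp1 were not.

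The cells were 3T3-L1, mouse preadipocytes in culture that turn into fat-storing cells after hormonal induction, and each of 9 arrays held the RNA of 1 sample. The day 0 culture was confluent and uninduced. The other control cultures received methylisobutylxanthine, dexamethasone and insulin for 2 days, then insulin alone, and were taken on days 2, 4, 6 and 8. Day 6 is given by the sample labels and is not among the days in the series' design text. The chickpea cultures were taken on the same days from the same media with 0.5% CP, which the labels call chickpea extract without giving its composition. All cultures after day 0 were therefore kept in insulin, in both media. Each medium and day had 1 array, so a difference on 1 day is untested, and differences between cultures and between arrays cannot be told apart.

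Insulin binds the receptor, a tyrosine kinase, which phosphorylates the docking proteins IRS-1 and IRS-2. These recruit phosphoinositide 3-kinase, made of a regulatory subunit such as p85 alpha (Pik3r1) and a catalytic subunit such as p110 beta (Pik3cb), and its lipid product brings PDK1 (Pdpk1) together with the kinase Akt. In adipocytes the pathway moves the glucose transporter GLUT4 to the surface and restrains lipolysis. PTP1B (Ptpn1) and LAR (Ptprf) remove phosphate from the receptor, and in liver insulin lowers Irs2 transcription through the factor FoxO1.

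The Irs1 and Irs2 promoters are shown because these related genes ran in opposite directions early in differentiation. Both are the 250 bases before the RefSeq gene start (GRCm38.p6), at chr1:82291440-82291689 on the minus strand for Irs1 and chr8:11008930-11009179 on the minus strand for Irs2. Capitals mark the E-box CACGTG, a site type bound by basic helix-loop-helix factors.
Irs1: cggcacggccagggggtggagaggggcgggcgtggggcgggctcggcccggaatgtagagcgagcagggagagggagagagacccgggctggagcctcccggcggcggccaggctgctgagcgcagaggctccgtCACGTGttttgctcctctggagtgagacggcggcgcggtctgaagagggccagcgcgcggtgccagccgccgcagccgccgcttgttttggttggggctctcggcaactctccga
Irs2: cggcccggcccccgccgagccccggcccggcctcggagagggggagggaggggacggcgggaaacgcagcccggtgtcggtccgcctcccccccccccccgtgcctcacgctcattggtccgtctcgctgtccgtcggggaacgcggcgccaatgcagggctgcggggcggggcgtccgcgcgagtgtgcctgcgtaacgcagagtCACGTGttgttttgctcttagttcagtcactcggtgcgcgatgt
The E-box began 115 bases before the start in Irs1 and 44 bases before it in Irs2. Of the 10 genes, 9 had a promoter entry, and Irs1 and Irs2 were the 2 that held CACGTG, searched on both strands, against 6.02% of 32851 upstream windows. The longest runs that both promoters shared were 10 bases, GTCACGTGTT and TGTTTTGCTC, found in 0.07% and 0.0639% of the windows. The first holds the whole E-box. The 2 runs overlap in both promoters. The motifs were chosen after these sequences were read, and a match is a description of letters, not of a bound site. GGGCGG, the core of the GC box, was in 8 of the 9 promoters, against 32.7% of the windows.

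Median spot intensity ran from 56 to 173.5 scanner units. In control medium it was between 131 and 173.5 on days 4 to 8, and in chickpea medium between 67.5 and 72, so the chickpea arrays were dimmer there. Levels below are log2 values after quantile scaling, which gives every array the same distribution, with a floor at 3.39. A spot counted as above background at more than 10 scanner units, which 3 of 369 empty and negative control spots exceeded. Of 11 adipocyte markers, from 9 to 11 were at least 2-fold above day 0 in the control cultures and from 3 to 6 in the chickpea cultures. Their summed intensity was between 4755 and 83740 units in control medium after day 0 and between 4352 and 8511 in chickpea medium. The chickpea sum was the higher on day 2, at 7066 against 4755, and the lower on days 4, 6 and 8. The 6 preadipocyte markers summed to between 6021 and 18298 units in control medium after day 0 and to between 3158 and 4720 with chickpea, lower on each of the 4 days. Such sums are unscaled and weigh bright genes most. After quantile scaling their mean chickpea differences were -1.24 (Dlk1), -0.63 (Lox), -0.24 (Sfrp2), -0.15 (Thbs1), 0.09 (Gata2) and 0.43 (Gata3). Of these, Dlk1 alone passed the test (limma adjusted p = 0.0173). The part of these differences in the results below was not tested. Of the macrophage and hepatocyte markers, 1 and 2 were on the array, and 0 were above the limit on any array.

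**Figure D1:**
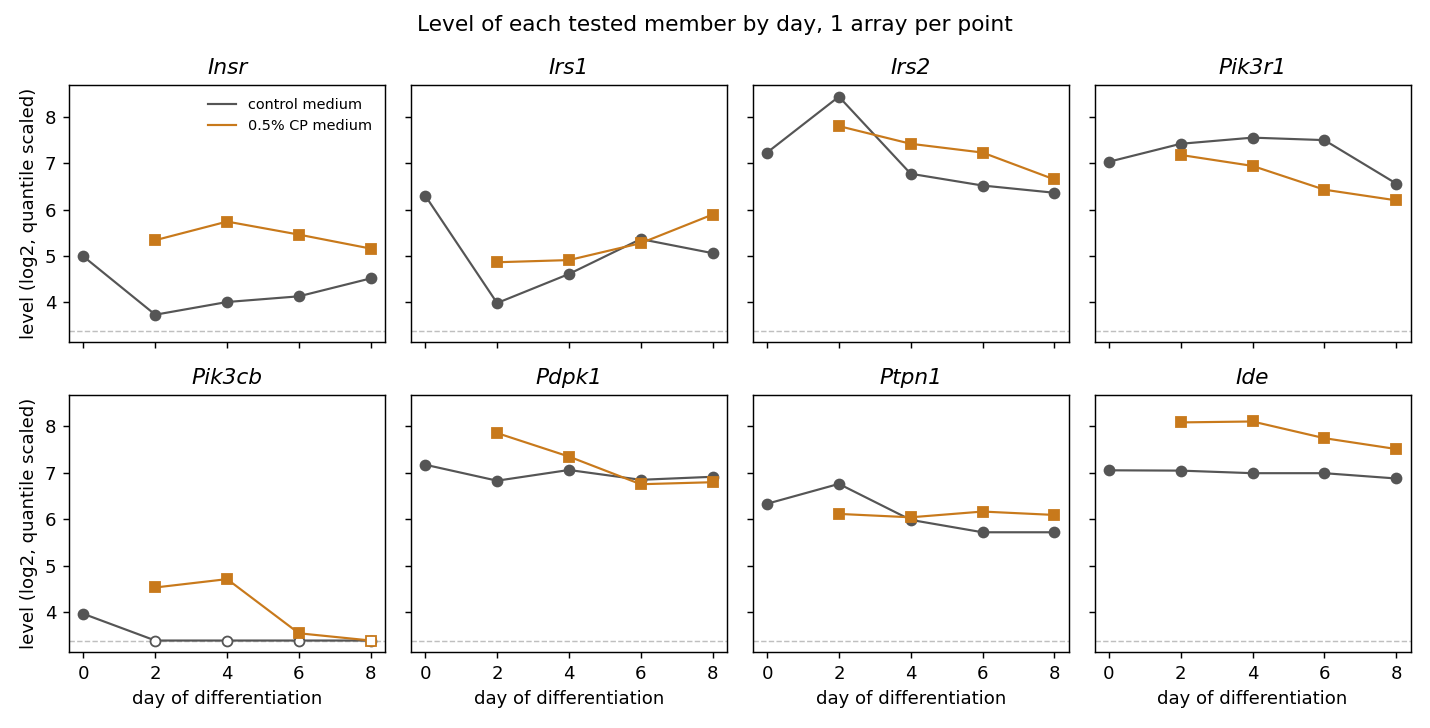
Log2 level after quantile scaling (vertical axis) by day of differentiation (horizontal axis) for the 8 tested genes, with 1 array per point, grey circles for control medium, orange squares for chickpea medium (0.5% CP) and open symbols at the floor (dashed line, 3.39). Insr and Ide lie higher in chickpea medium on all 4 days, Pik3r1 lies lower, and Irs1 and Irs2 move in opposite directions from day 0 to day 2 in control medium.

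The receptor gene Insr was higher with chickpea. In control medium its level was 4.99 before induction, then 3.73, 4.01, 4.13 and 4.52 on days 2, 4, 6 and 8. With chickpea the levels of those days were 5.34, 5.74, 5.46 and 5.16. All 4 chickpea arrays were above the 4 control arrays of days 2 to 8, as for 18.4% of tested genes, and above day 0. The share of genes also above day 0 was not counted. Under this scaling Insr dipped after induction in control medium and not with chickpea. The same-day differences were 1.61, 1.73, 1.33 and 0.64 in order of day. Their mean was 1.33 ± 0.24, a 2.51-fold difference, and passed the test (limma adjusted p = 0.0288). The SE given with this and other fitted values is the limma moderated one, which draws on the spread of all tested genes. For the chickpea test, SE and p rest on the spread of the same-day difference between the 4 days. They do not measure variation between replicate cultures, of which there were none.

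That call depends on how arrays are scaled. In scanner units Insr read 43 on day 0. On days 2 to 8 it read 13, 56, 80 and 119 in control medium and 83, 76, 70 and 51 with chickpea. Without scaling, control medium was thus below day 0 on day 2 alone. The chickpea array was the dimmer on days 6 and 8. The day 2 control spot, at 13 units, was close to the limit. Under the 5 other scalings the mean difference stayed above 0, between 0.24 and 1.05, and none passed the test. Without day 2, 4 or 6 it was 1.23, 1.19 and 1.33 with adjusted p = 0.0546, 0.168 and 0.188 (limma), each from 2 fewer arrays.

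Ide, which encodes the protease that degrades insulin, was the other gene called higher. Its control level was nearly flat after quantile scaling, at 7.06, 7.05, 6.99, 6.99 and 6.88 on days 0, 2, 4, 6 and 8. With chickpea it was 8.09, 8.11, 7.75 and 7.51 on days 2 to 8. Here too all 4 chickpea arrays were above the 4 control arrays of days 2 to 8, as for 18.4% of tested genes, and above day 0. In scanner units Ide was not flat in control medium, at 202, 136, 334, 381 and 431 on days 0 to 8. The chickpea spot read 541, 413, 408 and 296 on days 2 to 8, dimmer than control on day 8 alone. The mean difference of 0.89 ± 0.17 (1.85-fold, adjusted p = 0.0313) also passed the limma test with median scaling at 1.12 and 75th percentile scaling at 0.90. It did not pass with control gene scaling, on the deposited values or without scaling, where it was 0.31, 0.66 and 0.46. The call was also lost without day 4, at 0.81, and without day 6, at 0.93 (limma adjusted p = 0.188 for each).

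Across the array, 36 of 239 genes passed the chickpea test, 15.1%, of which 21 were higher, 8.79%, and 15 lower, 6.28%. Of the 8 tested genes described here 2 passed, both higher. With so few members, 2 of 8 does not set them apart from that background. The median difference was 0.38 over the 8 and 0.21 over all tested genes. Chickpea arrays lay wholly above control arrays of days 2 to 8 for Insr and Ide, and for 18.4% of all tested genes. Both were higher with chickpea on all 4 days, as were 27.6% of all tested genes.

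**Figure D2:**
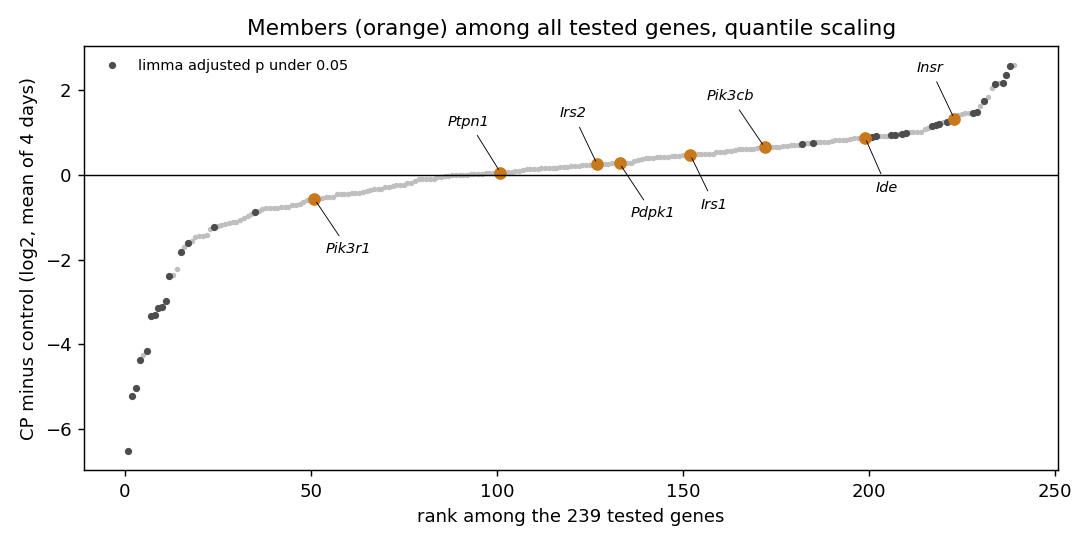
Mean same-day difference between chickpea (CP) and control medium (vertical axis, log2, quantile scaling) of the 239 tested genes in rank order (horizontal axis), with the 8 members in orange and other genes past the limma test in dark grey. Insr at 1.33 and Ide at 0.89 lie in the upper range, Pik3r1 at -0.57 lies in the lower part, and the other 5 lie between 0.06 and 0.66.

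The docking protein genes Irs1 and Irs2 ran in opposite directions at induction. Irs1 in control medium was at 6.30 on day 0 and 3.98, 4.61, 5.36 and 5.06 on days 2, 4, 6 and 8, and in chickpea medium at 4.86, 4.91, 5.27 and 5.89. Under quantile scaling Irs1 was lower than on day 0 on all 8 later arrays, as were 15.9% of tested genes, and lowest on day 2 in both media. In scanner units control days 6 and 8 read 131 and 159, above day 0 at 123. With chickpea the unscaled spot was lowest on day 4, at 33 units against 51 on day 2. Irs2 in control medium was at 7.23 on day 0, highest on day 2 at 8.43, then at 6.77, 6.52 and 6.36. In chickpea medium it stepped down from 7.80 on day 2 to 7.42, 7.23 and 6.65. In scanner units Irs2 read 219 on day 0 and 363, 289, 279 and 309 on control days 2 to 8, each above day 0. The chickpea spot read 475, 260, 282 and 175, below day 0 on day 8 alone.

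The ratio of the genes within an array does not depend on scaling that shifts a whole array. The Irs1 to Irs2 ratio on control day 2 was lower than on day 0 by log2 -3.60, a 12.1-fold difference, and on chickpea day 2 by -2.32, or 5.01-fold. On days 4 and 6 it was at -0.97 and -0.26 relative to day 0 in control medium and at -2.08 and -1.28 in chickpea medium. By day 8 it was back near the day 0 value in both media, at -0.13 and -0.09. The return therefore came by day 6 in control medium and by day 8 with chickpea. These are single arrays with no test, and the Irs1 spot of control day 2, at 15 units, was near the limit.

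**Figure D3:**
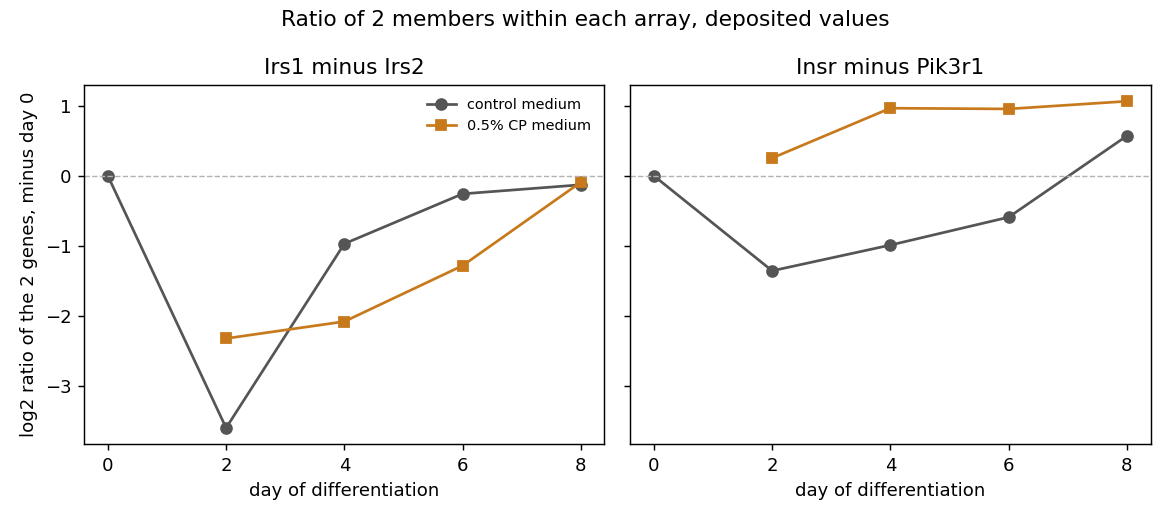
Log2 ratio of Irs1 to Irs2 (left) and of Insr to Pik3r1 (right) within each array from the deposited values, minus the day 0 ratio (vertical axis), by day (horizontal axis), with 1 array per point, grey circles for control and orange squares for chickpea (CP). The Irs1 to Irs2 ratio starts lowest on day 2 and ends near 0 in both media, and the Insr to Pik3r1 ratio is higher with chickpea on all 4 days.

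A linear change over days 2 to 8, fitted over both media, was positive for Irs1 at 0.19 ± 0.05 log2 per day and negative for Irs2 at -0.25 ± 0.06 (limma adjusted p = 0.0678 for each). Pik3r1 was at -0.15 ± 0.04 per day (adjusted p = 0.0832). None of the 8 genes passed, nor did any of the 239 tested (0.00%), while 3 of the 8 and 61 of the 239 had an unadjusted p under 0.05. Day 8 was set against day 0 in a fit over both media that takes out the mean difference between them, so the estimate need not equal the difference in either medium. Its estimates were below 0 for all 8 genes under quantile scaling, as for 158 of the 239 tested. They were -1.06 ± 0.41 for Irs1, -0.85 ± 0.51 for Irs2 and -0.81 ± 0.43 for Insr. None passed (limma adjusted p = 0.210, 0.356 and 0.328), against 2.09% of all tested genes, 1.26% higher and 0.837% lower. For Insr it was -1.39 without the control day 8 array and -0.47 without the chickpea one, and the levels on day 8 differed from day 0 by -0.47 in control medium and 0.17 with chickpea. Without scaling the 3 estimates turned positive, at 0.15, 0.16 and 0.64. The median over all tested genes was -0.36 and over the 8 was -0.64. The mean chickpea differences of Irs1 and Irs2 were 0.48 and 0.25, with 95% intervals of -0.11 to 1.07 and -0.47 to 0.98, and neither passed the test.

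Pik3r1, the p85 alpha regulatory subunit, was the member with a level below control on all 4 days, as were 12.6% of tested genes. Its control levels were 7.03, 7.42, 7.55, 7.50 and 6.56 on days 0 to 8, and its chickpea levels 7.18, 6.94, 6.43 and 6.20 on days 2 to 8. The media lay farthest apart on day 6, at -1.07. The mean of -0.57 ± 0.20 did not pass (limma adjusted p = 0.103) and was below 0 under all 6 scalings, between -1.16 and -0.36.

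Insr passed the test under 1 of 6 scalings and Pik3r1 under none, so their ratio within an array is given as a description. The Insr to Pik3r1 ratio was higher with chickpea by 1.61, 1.96, 1.55 and 0.49 on days 2, 4, 6 and 8 (deposited values), a mean of 1.40 ± 0.63 (SD over 4 days), and by a mean of 1.45 without scaling. For Ide to Pik3r1 the differences were 1.07, 1.83, 1.83 and 1.15, with a mean of 1.47 ± 0.42 (SD over 4 days). Both ratios were higher on 4 of 4 days. These pairs were chosen after their values were seen, and an exact sign-flip test over 4 days cannot give a two-sided p below 0.125. Insr and Ide lie in 1 printed block and Pik3r1 in the other, and the blocks have separate Gapdh factors.

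**Figure D4:**
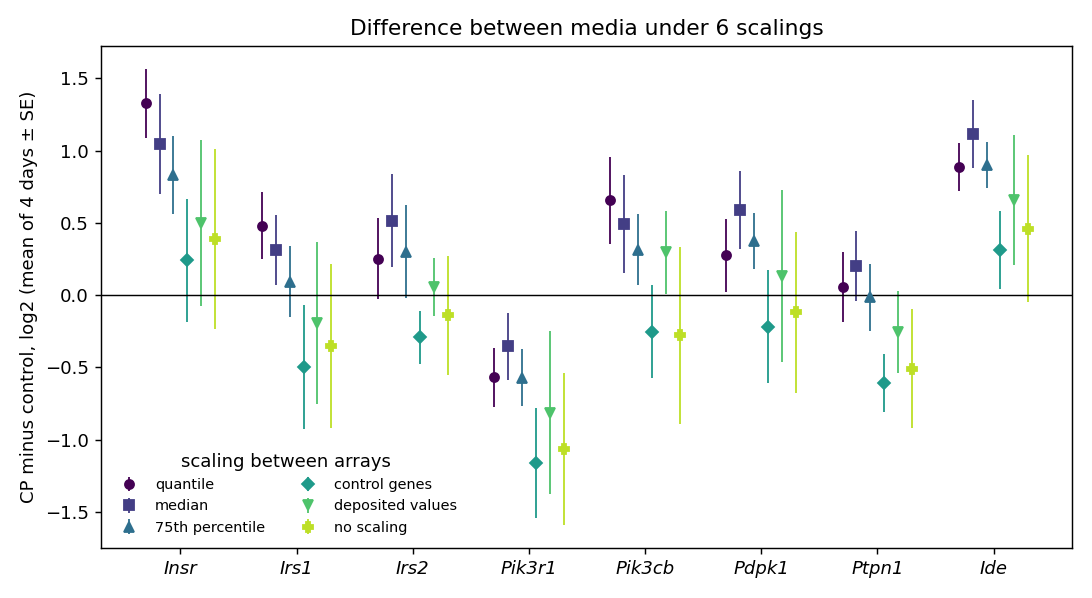
Mean same-day difference between chickpea (CP) and control medium (vertical axis, log2, points) for the 8 tested genes (horizontal axis) under 6 scalings between arrays. Bars are the limma moderated SE, which draws on the spread of all tested genes. Insr and Ide stay above 0 and Pik3r1 below 0 under all 6, while the other 5 genes change sign.

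Pik3cb, the p110 beta catalytic subunit, was dim. It was at 3.96 on day 0 and at the floor on the 4 later control arrays, and in chickpea medium at 4.53, 4.71 and 3.54 on days 2, 4 and 6 and at the floor on day 8. On day 2, where the control spot was below the limit, it was at least 1.14 higher with chickpea. On the scanner Pik3cb read 8, 30, 32 and 48 units in control medium on days 2 to 8 and 38, 33, 16 and 9 with chickpea, so before scaling the chickpea spot was nearly level on day 4 and the dimmer on days 6 and 8. The control spots of days 4, 6 and 8 were above the limit and came under the floor through the scaling, so the fitted mean of 0.66 is no bound. It was 0.21 with the limit doubled, and below 0 under 2 of the 6 scalings. Pdpk1, the kinase that activates Akt, was at 7.18, 6.83, 7.06, 6.85 and 6.92 in control medium and at 7.86, 7.35, 6.76 and 6.80 with chickpea. Its difference was 1.03 on day 2 and between -0.12 and 0.29 after. For Pik3cb and Pdpk1 the difference changed by -0.23 ± 0.08 and -0.19 ± 0.06 per day, without passing (limma adjusted p = 0.151 for each). These slopes were -0.077 for Pik3cb with the doubled limit and -0.10 for Pdpk1 without day 2, and -0.59 and -0.48 without scaling, where Pik3cb passed (adjusted p = 0.0440). With quantile scaling none of the 8 genes passed that test, against 3.35% of all tested genes. An unadjusted p under 0.05 (limma) was found for 2 of the 8 and for 75 of the 239 tested.

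Among genes that end the signal, Ptpn1, which encodes PTP1B, was measured at 6.33, 6.76, 5.99, 5.72 and 5.72 in control medium and stayed between 6.04 and 6.17 with chickpea. Its same-day differences were -0.65, 0.06, 0.45 and 0.37 in order of day. The mean was 0.06, with a 95% interval of -0.57 to 0.68. The receptor-type phosphatase Ptprf read from 0 to 2 units and Enpp1, whose product inhibits the receptor, from 0 to 10 units. Neither was above the limit on any of the 9 arrays, so no difference was detectable for them.

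By pattern over the 9 arrays, the genes most like Insr were Pi4k2b, a phosphatidylinositol 4-kinase, with Pearson r = 0.97, the adaptor Crk at 0.97 and the heme oxygenase gene Hmox1 at 0.95. For Irs2 they were Eif2b1 at 0.93, Cebpb at 0.89 and Foxc2 at 0.88, and for Irs1 Adra1d at 0.84, Klf2 at 0.82 and Thbs2 at 0.82. These were the highest of 238 genes compared. Among the members, r was 0.86 between Irs2 and Ptpn1, 0.84 between Insr and Ide, -0.51 between Irs1 and Irs2 and -0.61 between Insr and Pik3r1. The values share arrays and scaling, so they describe these 9 arrays.

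Other genes of the pathway were taken from a list of 58, of which 28 were on the array and 24 tested. With chickpea 5 of the 24 were higher and 0 lower, against 8.79% and 6.28% of all tested genes. The list median was 0.61, against 0.21 for all. Whether 5 of 24 differs from the share over all genes was not tested. Median scaling gave 4 higher and 1 lower, against 29 and 22 of 242 genes. Scaling to the 75th percentile gave 4 and 0, against 14 and 18 of 240. Control gene scaling gave 0 higher and 1 lower, and deposited and unscaled values gave 0 of either. Under those 3 scalings 0 genes of the whole array were called higher, so the list's 0 says nothing particular to it. The 5 higher genes with quantile scaling included Cap1 at 1.25 ± 0.15, the small GTPase Rhoq at 1.15 ± 0.21 and the kinase Gsk3b at 0.96 ± 0.20 (limma adjusted p from 0.0120 to 0.0363). Cap1, Rhoq and Gsk3b were above 0 under all 6 scalings and called under quantile, median and 75th percentile scaling. With control gene scaling the list median was -0.01 and that of all genes -0.38, and 12 of 24 members were above 0. The chickpea difference of Trib3, an Akt-binding pseudokinase, changed by -1.06 ± 0.06 per day (limma adjusted p = 0.00918, 2 residual degrees of freedom). No gene of the array passed that test with control gene scaling, on deposited values or with any 1 day left out, where between 37 and 66 genes had an unadjusted p under 0.05 (limma). Slc2a4, the GLUT4 gene, had a mean chickpea difference of -2.36 without passing (limma adjusted p = 0.0699). Its spot read 5, 148, 414 and 461 units in control medium on days 2 to 8. The chickpea readings of those days were 2, 1, 10 and 7 units, none of them above the limit. Neither medium had signal above the limit on day 2, and on later days the floor of 3.39 stood in for the chickpea level. That mean therefore does not measure the size of the difference. None of the 24 passed for day 8 against day 0 (limma), nor for the linear change with day.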

How the data were processed

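RNA of 9 samples was labelled with 1 dye and the file headers name GenePix Pro 6.1.0.4 as the scanner software. Values in the deposited table are linear intensity, and no source used here gives the authors' steps. Each of its 354 entries equalled 1 scanner spot plus 2 or 3 units, multiplied so that 4 Gapdh spots per block averaged 10000 (relative tolerance 1e-06), and was named through that match. Scanner wells carry no sample labels, so values in scanner units rest on it. The 3 wells without a sample name were not used. Of the array's names, 318 were current symbols and 13 synonyms.

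Values were converted to log2, spots averaged, the brightest probe taken per gene, arrays quantile scaled and floored at 3.39. Of 247 genes above 10 units on at least 2 arrays, 239 varied and were tested with limma 3.58.1 (R 4.3.3), two-sided, Benjamini-Hochberg adjusted over all of them, threshold 0.05. The chickpea effect used 8 arrays with day as a block (3 residual degrees of freedom). Its change with day had 2. The linear day term with medium had 5, and day 8 against day 0 over 9 arrays had 3, its SE holding no spread of day 0. The 1 array per medium and day limits the precision. The fit was tested on simulated data. Members, lists and tests were chosen with earlier results of these data known. Named are all 10 members, list genes past a test or carrying a comparison (some are not reported here), and the 3 genes most like Insr, Irs1 and Irs2. Alternatives covered scaling, filter, limit, variance prior, probes, the day block and left-out days or arrays. Control gene scaling used the mean of 7 housekeeping genes.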

Additional observations from a re-analysis of the deposited data

How the results depend on the processing

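Of the 8 genes, the number called for chickpea was 2 with quantile scaling and 1 with either median or 75th percentile scaling. It was 0 after scaling to control genes, on deposited values and on unscaled values. There 2, 0 and 0 had an unadjusted p under 0.05 (limma), against 91 of 241, 44 of 237 and 57 of 247 tested genes. Leaving out 1 day gave between 0 and 2. It was 2 under the 4 alternatives for filter, limit and variance prior, with probe means and without the day block. Over all genes the count was 36, but 0 without day 4 or day 6, 0 on the deposited values, 15 unscaled, 59 without day 2 and 73 without the day block. The calls split into 21 higher and 15 lower with quantile scaling, 29 and 22 with median, 14 and 18 with 75th percentile, 0 and 24 with control gene and 0 and 15 without scaling. Chickpea differences that turned sign were Irs1 at -0.50 (control genes), -0.19 (deposited) and -0.35 (unscaled), Irs2 at -0.29 (control genes) and -0.14 (unscaled), Pik3cb at -0.25 and -0.28, and Pdpk1 at -0.22 and -0.12 under the same pair. Ptpn1 turned to -0.016 (75th percentile), -0.61 (control genes), -0.26 (deposited) and -0.51 (unscaled), and ranged from -0.073 to 0.29 with 1 day left out, turning sign without day 6 or day 8. The median of all tested genes ranged from -0.38 to 0.23 between scalings. Relative to it, Insr (0.55 to 1.12) and Ide (0.68 to 0.89) were higher and Pik3r1 (-0.78 to -0.58) lower under all 6. Without scaling, day 8 against day 0 turned to 0.64 for Insr, 0.15 for Irs1 and 0.16 for Irs2, and 2 of the 8 genes passed for the change of the difference with day, against 0 with the other settings (of all genes 8 passed with quantile scaling, 27 unscaled, 21 when every array had to be above the limit, and 0 with control gene scaling, on deposited values or with any day left out). For day 8 against day 0 the count over all genes was 5 and ranged from 0 to 28 (highest without the control or the chickpea day 2 array), and for the linear change it was 0 and ranged from 0 to 6 (highest without the chickpea day 2 array), with 0 members throughout. The causes were not tested. The unscaled setting and the within-array ratios were added after seeing the data. No paired analysis was possible because the labels give no replicate numbers, other than the pairing of media by day, which the chickpea test already holds as its block.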
